A study of Sus scrofa with 9 samples.

Results

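Glucose uptake and glycolysis genes were followed in the abdominal aorta of minipigs on a normal or a high-fat diet. The set was 10 genes chosen by name: the glucose transporters SLC2A1 and SLC2A3, the hexokinases HK2 and HK3, the regulator PFKFB3, the glycolytic enzymes GAPDH, PGK1, ENO1 and PKM, and the lactate dehydrogenase LDHA. Of the 21357 genes in the deposited table, 7 of the 10 were found by the name written there, and SLC2A3 and LDHA were found by their gene identifiers, which made 9. SLC2A1, the basal glucose transporter of most cells, had no row by name or identifier and was not analysed here. Its RefSeq position on Sscrofa11.1 (chr6:168535398-168561170) lies inside the row of P3H1 (chr6:168535654-168690034) apart from its first bases.

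The animals were male Tibetan minipigs, with 3 libraries per group, each from 1 pig in the NC and H24 groups. The NC group ate a normal diet for 24 weeks, the H24 group (labelled atherosclerosis) ate a high-fat diet for 24 weeks, and the H8 group (labelled hypercholesterolemia) ate the high-fat diet for 8 weeks. The diet of the H24 pigs was a basal feed with added shortening oil, cholesterol and egg yolk powder, named HFC in the study. The NC and H24 pigs were bought as young animals. The age of the H8 pigs at sampling is not given in the sources used here, so 8 weeks of diet and a different age cannot be told apart in comparisons with that group. The 3 pigs sequenced in the NC and H24 groups were picked from a larger number kept on each diet.

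Cells take up glucose through SLC2A transporters, and hexokinases trap it by phosphorylation. Phosphofructokinase then commits the sugar to glycolysis, and PFKFB3 makes the sugar bisphosphate that activates this step. GAPDH, PGK1, ENO1 and PKM carry out the later, energy-yielding reactions, and LDHA reduces the resulting pyruvate to lactate, which leaves the cell through SLC16A transporters. In the artery wall, smooth muscle and endothelial cells are both strongly glycolytic, and activated macrophages in plaques raise glucose uptake and glycolysis, which is the basis of imaging plaques with labelled glucose analogues. Many of these genes are also induced by hypoxia through HIF1A.

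Total estimated counts were between 64805289 and 75787978 in the NC libraries, 68523454 and 75553522 in the H8 libraries and 44094263 and 65728854 in the H24 libraries. H24 replicate 3 stood apart from the other libraries. Its correlation with the other H24 libraries over all expressed genes was 0.872 and 0.830, whereas the other pairs within a group lay between 0.935 and 0.964. The 10 macrophage and monocyte markers (CD68, CD14, CSF1R and others) summed to 2152 FPKM in it, against 187 to 289 FPKM in the other H24 libraries, 36.1 to 213 FPKM in H8 and 25.9 to 39.4 FPKM in NC, and none of the 10 was at 0 in any library. The 8 smooth muscle markers (ACTA2, MYH11, TAGLN and others) summed to 1755 FPKM in it, against 8216 to 14007 FPKM in the other 8 libraries, so the labelled vessel wall was recognizable in all of them and lowest in this one. FPKM is fragments per kilobase of transcript scaled to library depth, a level that can be compared between genes. RNA came from whole tissue, so more cells of a type and more RNA per cell cannot be told apart.

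In normal aorta the 4 enzymes of the later reactions were abundant, and HK2, HK3 and PFKFB3 were low. GAPDH was the highest of the 9 genes at 207 ± 16.6 FPKM (SD, n = 3), rank 167 among all 21357 rows, and ENO1 followed at 177 ± 11.7 FPKM. PKM at 68.1 ± 1.83 FPKM and PGK1 at 66.9 ± 6.85 FPKM did not differ beyond their spread, and LDHA was lower at 41.9 ± 11.8 FPKM. PFKFB3 stood at 9.13 ± 1.31 FPKM, HK3 at 3.47 ± 0.891 FPKM and HK2 at 1.29 ± 0.627 FPKM, rank 10351. SLC2A3 had no stable place in this order, since its mean of 72.3 FPKM had an SD of 98.2 FPKM. GAPDH was first in 7 of the 9 libraries, and ENO1 was above it in H8 replicate 3 and H24 replicate 3.

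**Figure D1:**
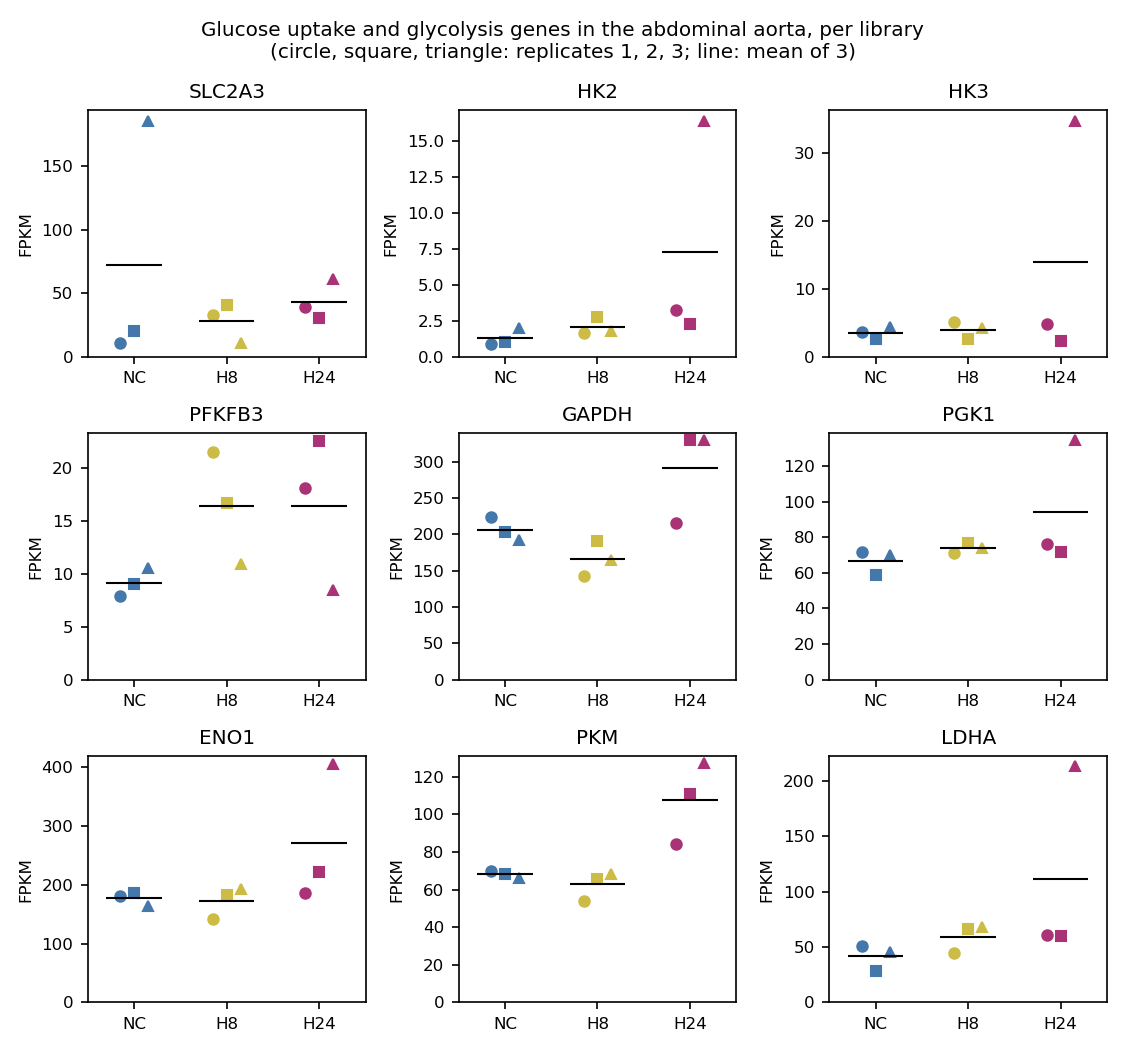
FPKM of each of the 9 genes (vertical axes, from 0) in the NC, H8 and H24 groups (horizontal axes), with circles, squares and triangles for replicates 1, 2 and 3 and a line at the mean of 3. H24 replicate 3 is the highest library for HK2 (16.3 FPKM), HK3 (34.6 FPKM) and LDHA (213 FPKM), while for SLC2A3 the highest is NC replicate 3 (185 FPKM).

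Pairwise comparisons used edgeR's quasi-likelihood test on the estimated counts, two-sided, with the study's rule for a differentially expressed gene (DEG): a log2 fold change beyond 1 in either direction and an unadjusted p below 0.05. H24/NC asks what 24 weeks of the HFC diet did, H8/NC what 8 weeks did, and H24/H8 how the later stage differed from the earlier one. H24/NC and H8/NC share the NC libraries, so their values are given side by side only. At H24/NC, 2 of the 9 genes (HK2 and LDHA) met the rule as higher and 0 as lower, where 9.95% of the 14828 genes tested were called higher and 1.52% lower. At H8/NC, none of the 9 genes met the rule in either direction, where 5.11% of 14336 genes were called higher and 2.27% lower. At H24/H8, again none did, where 7.22% of 14788 genes were called higher and 3.05% lower. An unadjusted p below 0.05 was reached by 3 genes at H24/NC (HK2, LDHA and PKM), 2 at H8/NC (PFKFB3 and LDHA) and 0 at H24/H8. DESeq2 called 3, 0 and 1 of the 9 genes by the same rule.

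No gene of the set passed a Benjamini-Hochberg adjusted p of 0.05 together with the fold threshold in edgeR's quasi-likelihood test. Over all genes, 0% passed both at H24/NC, 0.0279% at H8/NC and 0.0135% at H24/H8, and unadjusted p below 0.05 was reached by 2055, 2124 and 2029 genes. DESeq2 passed 945, 612 and 638 genes at both thresholds, and 1 of them at H24/NC was in the set (HK2, DESeq2 adjusted p = 0.0228). The median log2 fold change of the 9 genes was 0.64 at H24/NC, 0.29 at H8/NC and 0.59 at H24/H8, beside 0.008, 0.015 and 0.044 over all genes tested. Without H24 replicate 3 the median of the 9 was 0.39 at H24/NC and 0.09 at H24/H8. The fold changes were positive for 8, 7 and 8 of the 9 genes in these comparisons.

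Scaling set the sign of small differences in H8. Counts scaled by the trimmed mean of M values (TMM) placed the median gene near 0, whereas scaling by library size alone placed it at -0.13 at H8/NC and 0.24 at H24/H8. The DEGs at H8/NC were then 576 higher and 460 lower in place of 733 and 326, and at H24/H8 1447 and 290 in place of 1068 and 451. FPKM values carry no TMM scaling, so groups that do not overlap in FPKM were read beside the fold change.

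**Figure D2:**
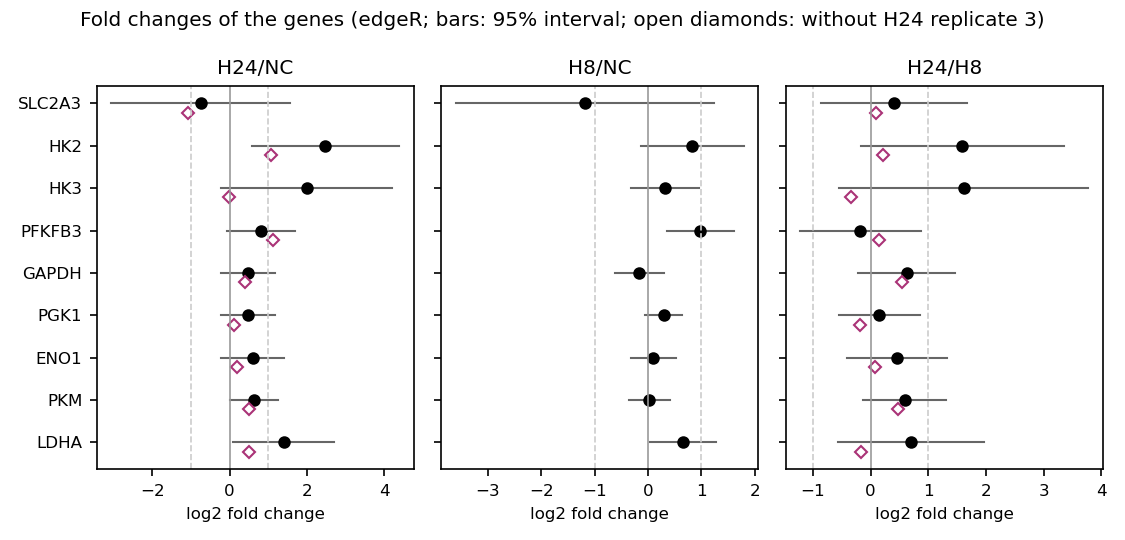
Log2 fold change (horizontal axes) of the 9 genes at H24/NC, H8/NC and H24/H8, as filled circles with 95% intervals from edgeR, and with open diamonds for the fits without H24 replicate 3. Dashed lines mark a log2 fold change of 1 in either direction. HK3 moves from 1.99 to about 0 at H24/NC when this library is left out, while PFKFB3 moves from 0.82 to 1.13.

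SLC2A3, the high-affinity glucose transporter of neurons and leukocytes (chr5:62963640-63041739, minus strand), was at 10.8, 20.5 and 185 FPKM in NC, 32.6, 40.8 and 10.6 FPKM in H8 and 38.8, 30.4 and 61.1 FPKM in H24. All groups overlapped, and NC replicate 3 alone was above every other library. Its log2 fold change was -0.75 ± 0.98 (SE; adjusted p = 0.786 in edgeR's quasi-likelihood test) at H24/NC and -1.19 ± 1.03 (adjusted p = 0.633) at H8/NC. Without NC replicate 3 these became 1.42 (adjusted p = 0.495) and 0.99 (adjusted p = 0.583), so 1 control library decided the sign, and at H24/NC the gene then met the DEG rule. The value at H24/H8, where this library has no part, was 0.40 ± 0.54 (adjusted p = 0.755). SLC2A4, the insulin-responsive transporter, was at 20.4, 20.7 and 32.4 FPKM in NC, so SLC2A3 held 34.7% to 85.1% of the summed FPKM of the 2 transporters there and 57.9% to 95.1% in H24.

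HK2, the inducible hexokinase of muscle and activated cells (chr3:68153824-68231615, minus strand), was at 0.851, 1.02 and 2.01 FPKM in NC, 1.61, 2.78 and 1.79 FPKM in H8 and 3.23, 2.27 and 16.3 FPKM in H24. Every H24 library was above every NC library, and at H24/NC 12.8% of all genes were separated in this direction and 7.8% in the opposite one. The log2 fold change at H24/NC was 2.48 ± 0.81 (95% interval 0.57 to 4.39; adjusted p = 0.257 in edgeR's quasi-likelihood test). It was 1.06 (adjusted p = 0.4) without H24 replicate 3, still past the DEG rule, and the call was lost on the unadjusted p without NC replicate 1 (2.24, adjusted p = 0.57) or NC replicate 2 (2.35, adjusted p = 0.527). HK2 was thus higher in each of the 3 H24 libraries, and the size of the fold depended on H24 replicate 3. At H8/NC the log2 fold change was 0.83 ± 0.41 (adjusted p = 0.393), and without NC replicate 3 it was 1.29 (adjusted p = 0.397), past the rule. At H24/H8 it was 1.59 ± 0.75 (adjusted p = 0.389), and 0.21 without H24 replicate 3.

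HK3, a hexokinase of leukocytes, was at 3.55, 2.55 and 4.32 FPKM in NC, 5.14, 2.54 and 4.28 FPKM in H8 and 4.73, 2.36 and 34.6 FPKM in H24. Only H24 replicate 3, the library with the highest macrophage marker sum, lay outside the range of the other libraries. Its log2 fold change was 1.99 ± 0.94 at H24/NC (adjusted p = 0.412) and 1.61 ± 0.92 at H24/H8 (adjusted p = 0.454), and -0.0021 and -0.34 without that library. The HK3 row (chr2:80919344-81060831, plus strand) spans 141488 bases, whereas RefSeq gives HK3 18432 bases on the same build, and the row overlaps UIMC1 on the same strand. UIMC1 itself was at 5.78 to 8.65 FPKM over all libraries and at 6.11 FPKM in H24 replicate 3. How reads in the overlap were assigned is not given in the sources used here, so the HK3 values are uncertain.

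HK1, the constitutive hexokinase, made up most of the hexokinase FPKM in every library. HK1 held 83.2% to 89.3% of the summed HK1, HK2 and HK3 FPKM in NC, 80.7% to 87.1% in H8 and 82.8%, 88.5% and 56.3% in H24. The HK2 share was 3.68% ± 1.44 in NC, 5.43% ± 1.15 in H8 and 8.88% ± 4.50 in H24 (SD, n = 3), and it was above every NC library in all H24 libraries (5.66% to 14.0% against 2.65% to 5.32%). With 3 libraries per group, the exact two-sided permutation test used for such shares cannot give a p below 0.1, which is the value it gave here.

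PFKFB3 (chr10:64776318-64859050, minus strand) was at 7.89, 8.99 and 10.5 FPKM in NC, 21.5, 16.6 and 10.9 FPKM in H8 and 18.1, 22.5 and 8.49 FPKM in H24. All H8 libraries were above all NC libraries, as were 6.91% of genes at H8/NC, while 15.9% were separated in the opposite direction. The log2 fold change at H8/NC was 0.98 ± 0.27 (95% interval 0.36 to 1.61; adjusted p = 0.209 in edgeR's quasi-likelihood test), just inside the fold threshold and so no DEG. It was 1.23 (adjusted p = 0.118) without H8 replicate 3 and 1.09 (adjusted p = 0.397) without NC replicate 3, past the rule in both. PFKFB3 was the only one of the 9 genes that was clearly lowest in H24 replicate 3 within its group. The log2 fold change at H24/NC was 0.82 ± 0.37 (adjusted p = 0.392) with it and 1.13 (adjusted p = 0.0600 in edgeR) without it, then past the DEG rule. At H24/H8 the log2 fold change was -0.17 ± 0.44 (95% interval -1.22 to 0.87; adjusted p = 0.878), so a difference between 8 and 24 weeks was not detected at this spread.

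Among the related kinase-phosphatases, PFKFB4 was the most abundant in NC at 12.8 ± 2.80 FPKM, and PFKFB3 held 31.4% to 43.4% of the summed PFKFB2, PFKFB3 and PFKFB4 FPKM. The PFKFB3 share was 69.0%, 70.2% and 42.7% in H8 and 60.3%, 57.6% and 43.6% in H24. All H24 libraries were above all NC libraries in this share, by a narrow margin in H24 replicate 3, and H8 overlapped NC through H8 replicate 3. PFKFB4 itself had log2 fold changes of -0.20 ± 0.29 at H24/NC, -0.30 ± 0.29 at H8/NC and 0.08 ± 0.37 at H24/H8, none past the rule.

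GAPDH, which oxidizes glyceraldehyde phosphate and served as the RT-PCR reference of the study (chr5:64126481-64133991, minus strand), was at 225, 203 and 192 FPKM in NC, 142, 191 and 165 FPKM in H8 and 216, 330 and 330 FPKM in H24. In FPKM all H8 libraries were below all NC libraries and all H24 libraries were above all H8 libraries. At H24/H8, 15.5% of all genes were separated as higher and 6.31% as lower. The log2 fold changes were 0.48 ± 0.29 at H24/NC (adjusted p = 0.524), -0.17 ± 0.20 at H8/NC (adjusted p = 0.735) and 0.63 ± 0.36 at H24/H8 (adjusted p = 0.454), and the 95% interval at H24/H8 ran from -0.21 to 1.47. In TMM-scaled CPM no pair of groups was separated. The GAPDH row overlaps IFFO1 on the opposite strand, and IFFO1 was at 5.23 to 11.3 FPKM.

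The level of GAPDH bears on any ratio to it. LDHA was 22.9%, 14.2% and 23.8% of GAPDH in NC, 31.2%, 34.6% and 41.2% in H8 and 28.0%, 18.1% and 64.6% in H24, so H8 stood above NC and H24 overlapped it. The ratios of HK2, PFKFB3, PGK1 and ENO1 to GAPDH were also above NC in all H8 libraries. GAPDH itself was lower in FPKM in H8, and the same separation was seen in 17.1% of the other 14335 genes tested, with 3.15% separated downwards. None of the 8 ratios was separated at H24/NC. PKM was 31.1% to 34.5% of GAPDH in NC, 34.4% to 41.6% in H8 and 33.6% to 39.0% in H24, the narrowest range relative to its level. Of 10 other genes commonly used as references, SDHA and HPRT1 had the lowest and highest log2 fold change at H24/NC (-0.13 ± 0.21 and 1.31 ± 0.66, neither a DEG). At H8/NC these were TBP (-0.30 ± 0.27) and YWHAZ, a DEG (1.21 ± 0.24; adjusted p = 0.172 in edgeR). At H24/H8 they were YWHAZ (-0.88 ± 0.30) and B2M (0.95 ± 0.50), and B2M was a DEG at H24/NC (1.26 ± 0.46), a call lost without H24 replicate 3 (0.65), NC replicate 2 (1.24) or NC replicate 3 (1.11).

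PGK1, the first ATP-forming enzyme of the pathway (chrX:62187404-62210705, plus strand), was at 71.6, 59.0 and 70.0 FPKM in NC, 71.4, 76.9 and 74.2 FPKM in H8 and 76.2, 71.8 and 135 FPKM in H24. The H24 libraries were above the NC libraries, 2 of them by little. At H24/NC its log2 fold change was 0.48 ± 0.30 (adjusted p = 0.536), and 0.12 without H24 replicate 3. At H8/NC it was 0.29 ± 0.15 (adjusted p = 0.4), and at H24/H8 0.15 ± 0.30, which became -0.18 without H24 replicate 3.

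ENO1, the main enolase outside muscle and nerve (chr6:69385486-69401668, minus strand), was at 180, 186 and 164 FPKM in NC, 142, 182 and 193 FPKM in H8 and 186, 222 and 405 FPKM in H24. The groups overlapped in all 3 comparisons, and H24 replicate 3 was the highest library. The log2 fold change was 0.60 ± 0.35 at H24/NC (adjusted p = 0.503), and 0.18 without that library. At H8/NC it was 0.10 ± 0.18 with TMM scaling and -0.05 with library size alone, so it had no fixed sign there. ENO1 held 95.03% to 99.4% of the summed enolase FPKM in every library.

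PKM, the pyruvate kinase of most adult tissues (chr7:60971835-61033954, plus strand), was at 69.8, 68.4 and 66.2 FPKM in NC, 54.0, 65.9 and 68.5 FPKM in H8 and 84.4, 111 and 127 FPKM in H24. All H24 libraries were above all others, and PKM depended least on H24 replicate 3 among the genes that were separated at H24/NC. For PKM at H24/NC it was 0.64 ± 0.26 on the log2 scale (adjusted p = 0.348 in edgeR's quasi-likelihood test), below the fold threshold, and 0.50 (adjusted p = 0.456) without that library. At H24/H8 it was 0.59 ± 0.30 (adjusted p = 0.415), and 0.47 without that library. At H8/NC it was 0.02 ± 0.17 with TMM scaling and -0.13 with library size alone. The row overlaps PARP6 and GRAMD2A on the same strand, and the table does not separate the splice forms of PKM.

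LDHA (chr2:40813963-40826715, minus strand) was at 51.3, 28.7 and 45.7 FPKM in NC, 44.4, 66.2 and 67.9 FPKM in H8 and 60.6, 59.7 and 213 FPKM in H24. All H24 libraries were above all NC libraries, and H8 overlapped both. LDHA had a log2 fold change of 1.40 ± 0.56 at H24/NC (95% interval 0.09 to 2.71; adjusted p = 0.337 in edgeR's quasi-likelihood test). The call was lost without H24 replicate 3 on both the fold and the unadjusted p (0.51, adjusted p = 0.583), and without any 1 NC library on the unadjusted p alone (1.20 to 1.55, adjusted p from 0.579 to 0.660). At H8/NC the log2 fold change was 0.66 ± 0.26 (adjusted p = 0.315 in edgeR), below the fold threshold. At H24/H8 it was 0.70 ± 0.54 (adjusted p = 0.569), and -0.16 without H24 replicate 3 (60.6 and 59.7 FPKM in the other H24 libraries, within the H8 range).

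LDHB, the heart-type subunit that favours oxidation of lactate, was more abundant than LDHA in all libraries but H24 replicate 3. It was at 165 ± 12.1 FPKM in NC, 150 ± 28.9 FPKM in H8 and 130 ± 3.94 FPKM in H24, with a log2 fold change of -0.36 ± 0.20 at H24/NC (adjusted p = 0.478). The LDHA share of the summed LDHA and LDHB FPKM was 22.6%, 14.6% and 23.1% in NC, 24.3%, 26.6% and 34.5% in H8 and 31.4%, 32.2% and 61.6% in H24. Both diet groups were above every NC library in this share, the exact permutation p being 0.1 for each, the smallest possible. LDHB has a second, lower row in the table (24.6 to 43.5 FPKM), and with both rows summed the share was 16.9% ± 4.29 in NC, 25.0% ± 4.60 in H8 and 37.7% ± 16.7 in H24, again without overlap with NC.

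**Figure D3:**
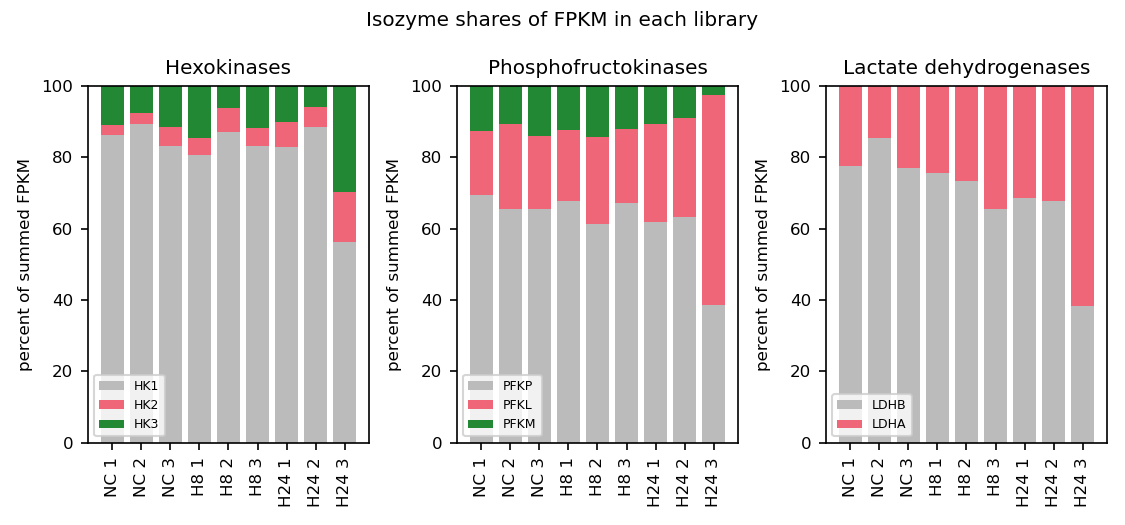
Share of the summed FPKM (vertical axes, percent) held by each isozyme of hexokinase, phosphofructokinase and lactate dehydrogenase in each of the 9 libraries (horizontal axes). LDHA held 14.6% to 23.1% in NC and 24.3% to 61.6% on the high-fat diet, and H24 replicate 3 differs from all other libraries in the 3 enzymes.

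Phosphofructokinase, the step that PFKFB3 regulates, also had shifted isozyme shares in H24, while each share in H8 overlapped NC. The liver-type PFKL held 18.1% to 23.8% of the summed PFKL, PFKM and PFKP FPKM in NC, 20.1% to 24.4% in H8 and 27.6%, 27.8% and 58.8% in H24. The muscle-type PFKM held 10.7% to 14.1% in NC and 10.6%, 8.97% and 2.58% in H24, and PFKP, the platelet type, remained the most abundant in all libraries but H24 replicate 3. PFKM met the DEG rule as lower at H24/H8, as 1 of 10 genes tested in its group (-1.10 ± 0.43; adjusted p = 0.343 in edgeR's quasi-likelihood test), and the call was lost without H24 replicate 3 (-0.74) or any 1 H8 library (-1.20 to -1.0). PFKL had a log2 fold change of 1.04 ± 0.46 at H24/NC (adjusted p = 0.374), and 0.37 without that library.

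H24 replicate 3 was thus the highest library of all for HK2, HK3, PGK1, ENO1, PKM and LDHA, level with H24 replicate 2 for GAPDH, and within the NC range for PFKFB3. Its macrophage marker sum was also the highest of all libraries, as given above. The 7 T and NK cell markers summed to 363 FPKM in it (32.8 and 37.7 FPKM in the other H24 libraries, 1.31 to 2.67 FPKM in NC). The 8 neutrophil markers summed to 62.4 FPKM (8.91 and 5.62 FPKM in the other H24 libraries, 0.991 to 1.19 FPKM in NC). Of the neutrophil markers, MPO was at 0 in all libraries but H24 replicate 3. The part of cell composition in the fold changes of the 9 genes was not tested. The measurements without that library are those given for each gene: HK2 kept its call, PFKFB3 gained one, LDHA lost its call, and HK3 had no difference left. Macrophage markers were also higher in the other H24 libraries, and 9 of 10 met the DEG rule at H24/NC without H24 replicate 3.

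Within H8, replicate 1 had the highest macrophage marker sum (213 FPKM) and the highest PFKFB3 level (21.5 FPKM). H8 replicate 2 had a macrophage sum of 36.1 FPKM, inside the NC range, and its PFKFB3 level of 16.6 FPKM and HK2 level of 2.78 FPKM were above all NC libraries. H8 replicate 3 had a sum of 143 FPKM, and its PFKFB3 level of 10.9 FPKM was the lowest of the group. The part of macrophages in these levels was not tested. Adipocyte markers also differed at 8 weeks: 3 of the 5 tested met the DEG rule as lower at H8/NC. Of these 5, 4 were below every NC library in all H8 libraries, as were 15.9% of all genes. The summed level of the 6 listed was 62.1 to 144 FPKM in H8 and 104 to 174 FPKM in NC. Whether the adipocyte markers bear on the 9 genes was not tested.

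**Figure D4:**
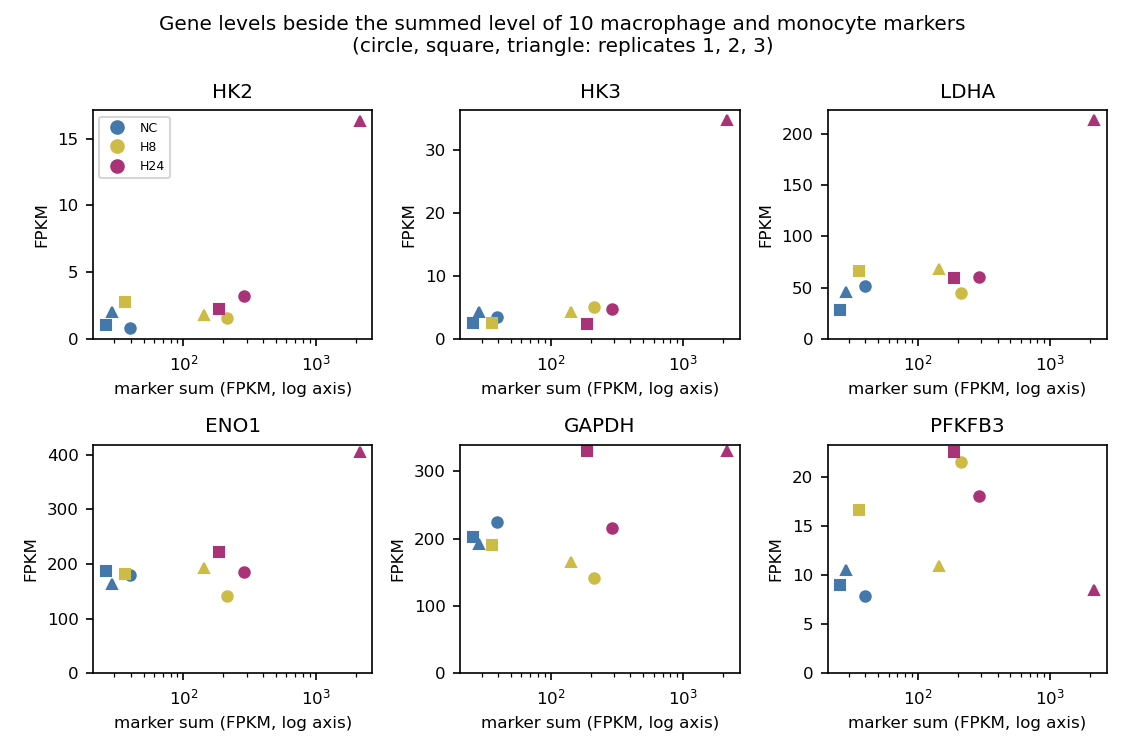
FPKM of 6 of the genes (vertical axes, from 0) against the summed FPKM of 10 macrophage and monocyte markers (horizontal axes, log scale), with 1 point per library coloured by group. H24 replicate 3, at a marker sum of 2152 FPKM, is the highest point for HK2, HK3, LDHA and ENO1 and among the lowest for PFKFB3.

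Genes with the most similar profile over the 9 libraries were sought by the Pearson correlation of log2(FPKM + 0.1), as a description without a test, since the points share groups and 1 library that stood apart. The nearest to HK2 were NFKB1, a subunit of NF-kappa B (r = 0.98), and STX3 (r = 0.98), and the nearest to HK3 were ATP6V1B2, a subunit of the vacuolar proton pump (r = 0.98), and PPM1H (r = 0.98). LDHA was nearest to LAMTOR2 (r = 0.98) and CYB561D2 (r = 0.98), PGK1 to ATP6V1F (r = 0.98) and PAQR8 (r = 0.98), ENO1 to YIF1B (r = 0.99) and SMPDL3B (r = 0.98), and PKM to H6PD, which feeds the pentose phosphate route in the endoplasmic reticulum (r = 0.97), and CA4 (r = 0.97). GAPDH was nearest to EIF4EBP1 (r = 0.93) and HTT (r = 0.93). PFKFB3 and SLC2A3 had looser neighbours, NID2 (r = 0.87) and the immediate early factor EGR3 (r = 0.87) for the former and PCF11 (r = 0.91) and MAT2A (r = 0.86) for the latter.

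The other genes of glucose metabolism were listed as 69 genes in 8 groups, and all 69 had a row. At H24/NC, 61 were tested and 9 met the DEG rule as higher and 3 as lower, with a median log2 fold change of 0.13. Of all genes tested there, 9.95% were called higher and 1.52% lower. At H8/NC, 6 of 62 were higher and 1 lower (median 0.15), where 5.11% of all genes were higher and 2.27% lower. At H24/H8, 2 of 62 were higher and 5 lower (median 0.06), where 7.22% of all genes were higher and 3.05% lower. With no library left out, none passed the adjusted threshold in edgeR, with 17, 13 and 8 genes at an unadjusted p below 0.05. DESeq2 passed 6, 5 and 5. Without H24 replicate 3 the counts were 5 higher and 2 lower at H24/NC and 2 higher and 4 lower at H24/H8. Over all genes they were then 946 higher and 186 lower at H24/NC, and 547 higher and 365 lower at H24/H8.

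Hexose transporters of leukocytes and epithelia gave the largest fold changes. SLC2A5, the fructose transporter, was at 0.257, 0.126 and 0.0246 FPKM in NC, 2.16, 0.195 and 1.85 FPKM in H8 and 4.20, 1.98 and 19.7 FPKM in H24. Its log2 fold change at H24/NC was 5.95 ± 1.20 (adjusted p = 0.132 in edgeR), and 4.45 (adjusted p = 0.0435 in edgeR) without H24 replicate 3. SLC2A6, a lysosomal hexose transporter, was at 0.173 to 0.557 FPKM in NC, 0.570 to 1.74 FPKM in H8 and 2.74 to 12.1 FPKM in H24, and it met the rule as higher in all 3 comparisons (log2 fold change 4.10 ± 0.79 at H24/NC, 1.81 ± 0.59 at H8/NC and 2.25 ± 0.69 at H24/H8). At H24/NC without H24 replicate 3, SLC2A6 was at 3.06 (adjusted p = 0.0362 in edgeR). With any other 1 library left out, adjusted p at H24/NC in edgeR was 0.0661 to 0.465 for SLC2A5 and SLC2A6. The SLC2A6 call at H8/NC was lost without NC replicate 2 (1.74) or H8 replicate 1 (1.34). SLC2A9, a urate transporter, was higher at H24/NC (5.48 ± 1.40) and H8/NC (3.24 ± 1.26) from NC levels of 0 to 0.0467 FPKM, too low for a firm fold, and the latter call was lost without NC replicate 1 (3.82) or NC replicate 2 (3.49). These were 3 of the 9 tested in the group of other transporters at both H24/NC and H8/NC, and SLC2A6 was the 1 at H24/H8. In NC all 3 were below 1 FPKM. All 3 were highest in H24 replicate 3, as were the macrophage, T and NK cell and neutrophil marker sums. In TMM-scaled CPM, SLC2A6 was at 6.07 in H24 replicate 1 and 7.42 in H24 replicate 2. The macrophage sums of these libraries were 289 and 187 FPKM. The part of cell composition in the transporter levels was not tested.

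Among the other enzymes of the first phase, the abundant aldolase ALDOA (91.9 ± 15.4 FPKM in NC) had a log2 fold change of 0.17 ± 0.20 at H8/NC, and GPI, the phosphoglucose isomerase, one of -0.11 ± 0.16. In the second phase, 0 of 6 tested genes met the rule in any comparison, and none had an unadjusted p below 0.05 in edgeR, and the same held for PFKFB2, PFKFB4 and TIGAR. PGAM1, the main phosphoglycerate mutase, had log2 fold changes of 0.49 ± 0.37 at H24/NC, 0.16 ± 0.20 at H8/NC and 0.29 ± 0.38 at H24/H8.

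In the fate of pyruvate and lactate, 13 of 14 genes were tested. SLC16A3, the lactate exporter MCT4, was at 0.790, 2.37 and 0.524 FPKM in NC, 0.477, 0.921 and 1.27 FPKM in H8 and 2.74, 4.87 and 17.7 FPKM in H24, so every H24 library was above every other. Its log2 fold change was 2.74 ± 0.88 at H24/NC (adjusted p = 0.253 in edgeR) and 3.05 ± 0.76 at H24/H8 (adjusted p = 0.336), and it stayed past the rule without H24 replicate 3 (1.60 and 1.94). Its call at H24/NC was lost without NC replicate 1 (2.49) or NC replicate 3 (2.36). SLC16A7, a lactate and pyruvate importer, also met the rule at H24/NC (1.56 ± 0.61), and not without H24 replicate 3 (0.67), NC replicate 1 (1.47) or NC replicate 2 (1.35). Of the kinases that shut pyruvate dehydrogenase, PDK4 met the rule as higher at H8/NC (1.02 ± 0.25) and as lower at H24/H8 (-1.56 ± 0.64), and PDK1 as lower at H24/H8 (-1.32 ± 0.33). The PDK1 call held without any 1 library, whereas that of PDK4 at H8/NC was lost without NC replicate 2 (0.89) or H8 replicate 2 (0.75), and that at H24/H8 without H24 replicate 2 (-1.39) or any 1 H8 library (-1.72 to -1.29). PDK4 was at 27.4 to 41.9 FPKM in NC, 52.4 to 79.8 FPKM in H8 and 50.3, 17.3 and 7.97 FPKM in H24.

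In the pentose phosphate route, which branches from glucose phosphate and makes NADPH, TKT, a transketolase, met the rule at H24/NC (1.304 ± 0.54), and did not without H24 replicate 3 (0.39) or any 1 NC library (1.23 to 1.39). In all, 2 of the 7 tested met it there, and 0 did without H24 replicate 3. TKT was at 41.2 to 53.9 FPKM in NC and 62.6, 63.3 and 228 FPKM in H24. At H8/NC and H24/H8 none of the 7 met the rule or had an unadjusted p below 0.05 in edgeR, and TKT was at 0.05 ± 0.18 and 1.22 ± 0.54 and PGD at 0.15 ± 0.14 and 0.83 ± 0.46 on the log2 scale. Of 9 glycogen genes, PYGB, the brain-type phosphorylase, met the rule as lower at H24/NC (-1.29 ± 0.45) and H24/H8 (-1.35 ± 0.39), and 0 of the 9 did at H8/NC, where 1 had an unadjusted p below 0.05. The PYGB call at H24/NC was lost without H24 replicate 3 (-0.96), NC replicate 1 (-0.96) or NC replicate 2 (-1.3). GYG1, the glycogen primer protein, and PGM1, which links glycogen to glycolysis, were at 0.15 ± 0.17 and -0.28 ± 0.14 at H8/NC.

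Gluconeogenic genes moved both ways, with 5 of 6 tested. PC, pyruvate carboxylase, was at 8.19, 24.7 and 11.06 FPKM in NC, 3.36, 3.31 and 4.37 FPKM in H8 and 8.30, 4.00 and 2.72 FPKM in H24, and it met the rule as lower at H8/NC (-1.88 ± 0.42) and H24/NC (-1.60 ± 0.56). NC replicate 2 was above the other NC libraries, and the call at H24/NC was lost without it (-0.96) or without H24 replicate 2 (-1.49), while that at H8/NC held without any 1 library. PC is also high in adipocytes. Of the adipocyte markers, 3 of the 5 tested met the DEG rule as lower at H8/NC, and 4 of 6 as higher at H24/H8. Their summed level in H8 replicate 2 was 144 FPKM, inside the NC range, and PC was at 3.31 FPKM there. Taken singly, 4 of the 5 tested markers were below every NC library in all H8 libraries, as were 15.9% of all genes. Without H8 replicate 2, 3 markers again met the DEG rule as lower at H8/NC. The part of adipocytes in the PC values was not tested. PCK2, the mitochondrial form of phosphoenolpyruvate carboxykinase, met the rule as higher at H24/NC (2.40 ± 0.85), a call lost without H24 replicate 3 (0.68) or any 1 NC library (2.35 to 2.43). PCK1 and FBP1, named after their values were seen, completed the counts: PCK1 was lower at H24/NC and H24/H8 from levels of at most 1.11 FPKM, and FBP1 was higher at H8/NC (0.173 to 0.608 FPKM). The PCK1 calls were lost without NC replicate 1 (-3.53, H24/NC) and without H8 replicate 3 (-3.44, H24/H8), and PCK1 was not tested at H24/NC without NC replicate 2.

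**Figure D5:**
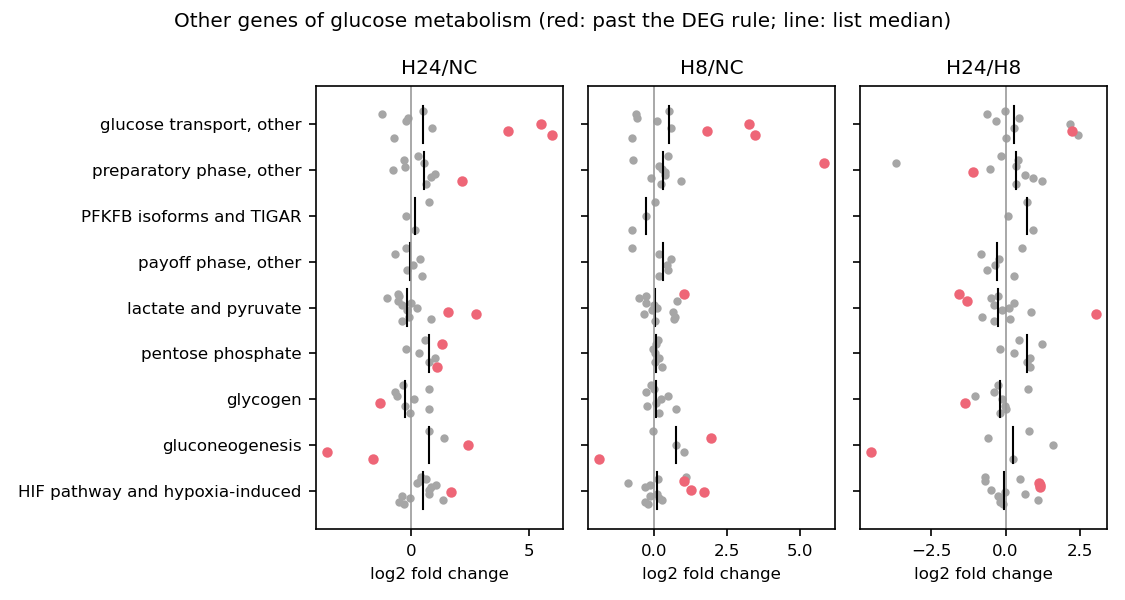
Log2 fold change (horizontal axes) of the other genes of glucose metabolism and of the hypoxia list, by group (vertical axis), at H24/NC, H8/NC and H24/H8, with 1 point per tested gene, red where it met the DEG rule, and a line at the group's median. The 3 red transporters at H24/NC are SLC2A6, SLC2A5 and SLC2A9, and no gene of the payoff phase is red in any comparison.

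Genes of the hypoxia response share the regulator HIF1A with many of the 9. Of 14 tested, 1 met the DEG rule at H24/NC, 3 at H8/NC and 3 at H24/H8, all as higher. The shares of all genes called higher were 9.95%, 5.11% and 7.22% in these comparisons, and those called lower 1.52%, 2.27% and 3.05%. VEGFA, the vascular growth factor, was at 6.28, 8.75 and 8.09 FPKM in NC, 15.4, 30.8 and 21.0 FPKM in H8 and 12.1, 35.5 and 27.6 FPKM in H24, with no overlap between NC and either diet group. Its log2 fold change was 1.69 ± 0.42 at H24/NC (adjusted p = 0.156 in edgeR) and 1.69 ± 0.31 at H8/NC (adjusted p = 0.143), and 1.62 at H24/NC without H24 replicate 3. ADM, adrenomedullin (1.27 ± 0.41), and P4HA1, a collagen prolyl hydroxylase subunit (1.04 ± 0.37), were the others at H8/NC. H8 replicate 2 was the highest library for both (19.8 and 34.5 FPKM), and their calls were lost without it (0.73 and 0.52), without NC replicate 1 (1.14 and 1.05) and without NC replicate 2 (1.11 and 0.87), whereas the VEGFA calls held without any 1 library. At H24/H8 the genes were BNIP3, a mitophagy receptor (1.16 ± 0.29), ANKRD37 (1.13 ± 0.40) and NDRG1 (1.16 ± 0.44), and the last was at 0.57 without H24 replicate 3. The BNIP3 call was lost without H24 replicate 2 (0.81), the ANKRD37 call without H24 replicate 1 (1.05), H24 replicate 2 (1.08), H8 replicate 1 (0.88) or H8 replicate 2 (1.04), and the NDRG1 call without any 1 library except H24 replicate 1. PFKFB3 and VEGFA were both above every NC library in all H8 libraries, and ANKRD37 was at 3.40 to 4.26 FPKM in NC and 1.19 to 2.92 FPKM in H8.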

How the data were processed

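The 9 RNA-seq libraries from the abdominal aorta were grouped by their labels into NC, H8 and H24, 3 each. The extract protocol in the labels speaks of an adipose type, and the tissue labels and study give the vessel. The authors mapped reads with HISAT2 2.0 to Sscrofa11.1 and deposited FPKM from StringTie 1.3.0 with whole-number expected counts per gene, whose derivation is not given in the sources used here. The submitters' processing notes also name Bowtie 0.12.2 and mm8, a mouse build, and no use of these was found in the table. Of the 21357 rows, 16238 carry a name, 932 were named by gene ID and 694 by NCBI ID.

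The genes and lists were chosen with earlier results of these data known. Expected counts were tested with edgeR 4.0.16 in R 4.3.3 (quasi-likelihood, two-sided, TMM scaling, a minimum mean of 0.1 FPKM across the 6 libraries compared, Benjamini-Hochberg adjustment over all genes tested). The DEG rule was the study's: log2 fold change beyond 1 in either direction and p below 0.05. SE is the log2 fold change divided by the root of F. Alternatives used DESeq2 1.42.0 and limma 3.58.1. The test was checked on simulated counts. From each list, named genes were up to 4 past the rule with the smallest p and mean FPKM of at least 0.5, or else the 2 most abundant. The p-values set the difference between groups against the spread between these libraries. A count of 3 in a library was 0.0396 to 0.0680 CPM (counting error only). Reads of GAPDH, PGK1, ENO1 and LDHA can map to processed copies elsewhere, and how shared reads were counted is not given in the sources used here. Some genes of these lists are counted and not reported here by name.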

Additional observations from a re-analysis of the deposited data

Results flagged for a closer look

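Of the 9 genes and the listed genes of glucose metabolism, 7 had every H8 library on one side of the NC mean and every H24 library on the other in FPKM. The pattern requires that H8 and H24 do not overlap, as in 15.5% of all genes (H24 higher) and 6.31% (H24 lower). How many of all genes had the full pattern was not computed, so the count of 7 is not read as a result. The genes were picked for this pattern on these libraries, so their H24/H8 values describe it and are no independent test. PFKM (log2 fold change -1.10, adjusted p = 0.343) and PDK1 (-1.32, adjusted p = 0.336) met the DEG rule there, both above the NC mean in H8 and below it in H24. The other genes were below the NC mean in H8 and above it in H24: GPI at 0.94 (adjusted p = 0.341), G6PC3 at 0.78 (adjusted p = 0.383), TIGAR at 0.73 (adjusted p = 0.392), PGLS at 0.72 (adjusted p = 0.437) and GAPDH at 0.63 (adjusted p = 0.454). In TMM-scaled CPM, PFKM and PDK1 kept this pattern and the other 5 did not.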

How the results depend on the processing

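Leaving out 1 library, genes of the set called ranged from 0 to 3 at H24/NC, 0 to 2 at H8/NC and 0 to 2 at H24/H8, and other glucose metabolism genes from 5 to 20, 4 to 8 and 4 to 15. The set had 1 call at H24/NC with limma on log2(FPKM + 0.1), limma on log2(FPKM + 1) and the replicate block, and 1 at H24/H8 with library size only, with DESeq2 and with all 9 libraries in one fit. The other glucose metabolism genes had 6 calls at H24/NC with limma on log2(FPKM + 1), 2 at H8/NC with mean FPKM of at least 1, 1 there with limma on log2(FPKM + 1), and 12 at H24/H8 with DESeq2. Of 416 alternative fold changes of the 9 genes, 24 changed sign. SLC2A3 at H24/NC was 0.26 and 0.24 with limma and 0.28 with the replicate block (-1.26 to 1.42 leaving out 1 library), and at H8/NC 0.06 with the block (-1.70 to 0.99). ENO1 at H8/NC was -0.05 and PKM -0.13 with library size only, and -0.05 and -0.12 with both limma fits. PFKFB3 at H24/H8 was 0.02 with library size only. Leaving out 1 library, the ranges of the others that changed sign were HK3 -0.0021 to 2.49 at H24/NC and -0.34 to 2.10 at H24/H8, ENO1 -0.02 to 0.23 and PKM -0.09 to 0.13 at H8/NC, and at H24/H8 SLC2A3 -0.01 to 0.86, PFKFB3 -0.54 to 0.14, PGK1 -0.18 to 0.29 and LDHA -0.16 to 1.0. The cause was not tested, beyond the library left out. Same-numbered libraries deviated with correlations of -0.085 to 0.107, and 1, 2 and 1 of 3 correlated best with their own number at H24/NC, H8/NC and H24/H8. The numbers were thus not treated as pairs, and the block lost the LDHA call (1.15). Depth does not limit the 9 genes, whose lowest count was 320.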
